A study of Mus musculus with 4 samples.

Results

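Aerocyte capillary endothelial cells were taken from single-cell RNA sequencing of whole mouse lung. A barcode was counted as an aerocyte when it held 200 to 7500 detected genes and at most 10% mitochondrial UMIs (unique molecular identifiers, 1 per captured transcript), at least 1 UMI of the endothelial cadherin Cdh5, at least 2 UMIs of the endothelin receptor Ednrb, at least 1 UMI in at least 2 of the 6 genes Car4, Apln, Fibin, Tbx2, Rprml and Chst1, and no UMI of the leukocyte gene Ptprc or the collagen gene Col1a2. The rule found 488 aerocytes among 15428 barcodes in 4 libraries. Of these barcodes, 11846 passed the limits on genes and mitochondrial UMIs, so that aerocytes made up 4.12% of them (95% Clopper-Pearson interval 3.77 to 4.49%).

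The alveolar capillary bed is lined by a pair of endothelial cell types. Aerocytes are broad, very thin cells that lie against the alveolar type 1 epithelium and are known as the cells across which gas is exchanged, while general capillary cells are smaller, express the apelin receptor Aplnr, and are known to regulate vascular tone and to renew both types. Aerocytes receive vascular endothelial growth factor (VEGF) from the epithelium through the receptor Kdr and release apelin, encoded by Apln.

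All mice were male, wild-type C57BL/6 animals, and each library held cryopreserved cells pooled from 3 left lobes after Liberase digestion. The young nonventilated library (YN) came from naive mice aged 2 to 3 months and the aged nonventilated library (AN) from naive mice aged 22 months. The young ventilated (YV) and aged ventilated (AV) libraries came from mice of the same ages that were anesthetized with ketamine and medetomidine, given buprenorphine, and ventilated for 3 h with pure oxygen at a tidal volume of 20 mL/kg and 150 breaths/min without positive end-expiratory pressure. A fixed maximum limited the tidal volume, so that mice above a set weight received less per body weight, and a food-restricted diet is given in the methods for the aged mice and in the labels without a split by age, so that age and diet cannot be told apart. Anesthesia, analgesia, oxygen and ventilation therefore cannot be told apart, and with 1 library per group no difference has a replicate check or a test: every interval below covers counting error only.

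The libraries held 3630 barcodes and 41222284 UMIs (YN), 4497 barcodes and 44404172 UMIs (YV), 3901 barcodes and 45218176 UMIs (AN), and 3400 barcodes and 40655452 UMIs (AV), and sets of 4 values follow this order throughout. Pairs of libraries shared 0 to 7 barcode sequences, and none of those was an aerocyte in both. Aerocytes numbered 189 in YN, 110 in YV, 102 in AN and 87 in AV. Their median depth was 9718, 9769, 10111 and 12269 UMIs per cell, and their summed depth was 2287212, 1548927, 1314200 and 1431735 UMIs.

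Aerocytes took a larger share of the barcodes in the young nonventilated library than in the other 3, which differed little from each other. The share was 6.42% (95% interval 5.56 to 7.37%) in YN, 3.31% (2.73 to 3.97%) in YV, 3.37% (2.76 to 4.08%) in AN and 3.41% (2.74 to 4.19%) in AV. Among Cdh5-positive barcodes the shares were 19.4%, 11.5%, 12.6% and 13.6%, and per 100 general capillary cells there were 38.5, 21.8, 23 and 25.6 aerocytes. The rule itself bears on these shares, because its Ednrb condition reads a gene whose level differed between libraries: the median aerocyte held 9, 4, 7 and 4 Ednrb UMIs. When Ednrb was left out and 3 of the 6 further markers were required instead, 211, 176, 118 and 113 cells met the rule, or 7.17%, 5.29%, 3.90% and 4.43% of barcodes. The difference between the young libraries was then smaller, and the aged ventilated share lay above the aged nonventilated one. The 6 further markers bear on these shares as well. In the aerocytes of the first rule, Car4 and Rprml were called lower in the young ventilated library and Apln in the aged ventilated one. How dissociation and freezing acted on these shares was not tested.

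**Figure D1:**
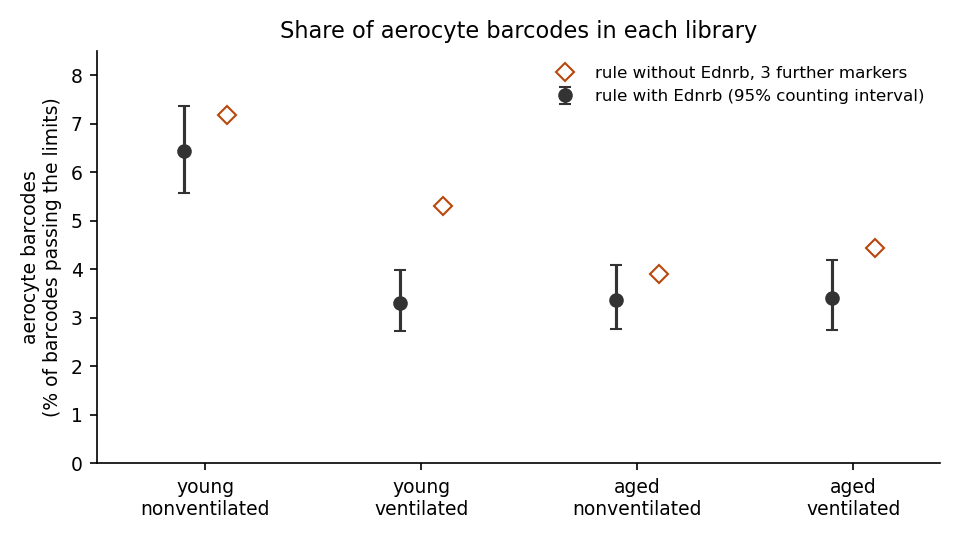
Aerocytes as a percentage of filtered barcodes in each library (filled circles, with 95% Clopper-Pearson intervals as bars, which cover counting error only) and the percentage under the rule without Ednrb (diamonds). The young nonventilated share, 6.42%, stands above the other 3 circles, whereas the diamonds run from 3.90% to 7.17% with the young ventilated library at 5.29%.

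Genes known from aerocytes but not read by the rule were checked against general capillary cells, which were taken by their own markers (491, 505, 444 and 340 cells). The summed counts of each cell type were expressed as CPM (counts per 1000000 UMIs). Emp2, a membrane protein of thin alveolar cells, stood at 2858, 1528, 2379 and 1517 CPM in aerocytes of YN, YV, AN and AV, against 81.0 to 137 CPM in general capillary cells. Igfbp7, a secreted matrix protein, stood at 2525, 3143, 2589 and 2665 CPM against 84.9 to 294 CPM. Kdr stood at 1468, 363 and 1299 CPM in the first 3 libraries and 393 CPM in the aged ventilated one, above general capillary cells throughout (280, 198, 216 and 172 CPM). Emp2, Igfbp7 and Kdr thus stood as the label would have it, whereas Nckap5 went against it: at 1072, 435, 888 and 207 CPM it was lower than in general capillary cells (2643, 994, 2344 and 556 CPM).

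The genes that set aerocytes apart most from general capillary cells are given as a description, since the cells were chosen by their transcripts. Of 4050 genes compared, 138 were at least 2-fold higher in aerocytes in all 4 libraries and 96 at least 2-fold lower. Among the higher genes outside the rule were Rgs6, a regulator of G-protein signaling (log2 ratio 6.10, 6.36, 4.19 and 5.08 by library), the transmembrane protein Tmeff2, the adhesion molecule Ncam1, the phosphodiesterase Pde8b, the phagocytosis receptor Sirpa and the lamin tail domain protein Lmntd1. Among the lower genes were Sntb1 (syntrophin; mean 35.0 CPM in aerocytes and 207 CPM in general capillary cells), the phospholipase Plcb1 (367 and 1411 CPM), the adhesion molecule Cadm1 (91.2 and 406 CPM), the muscarinic receptor Chrm2 and Selp, the P-selectin of endothelial storage granules.

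**Figure D2:**
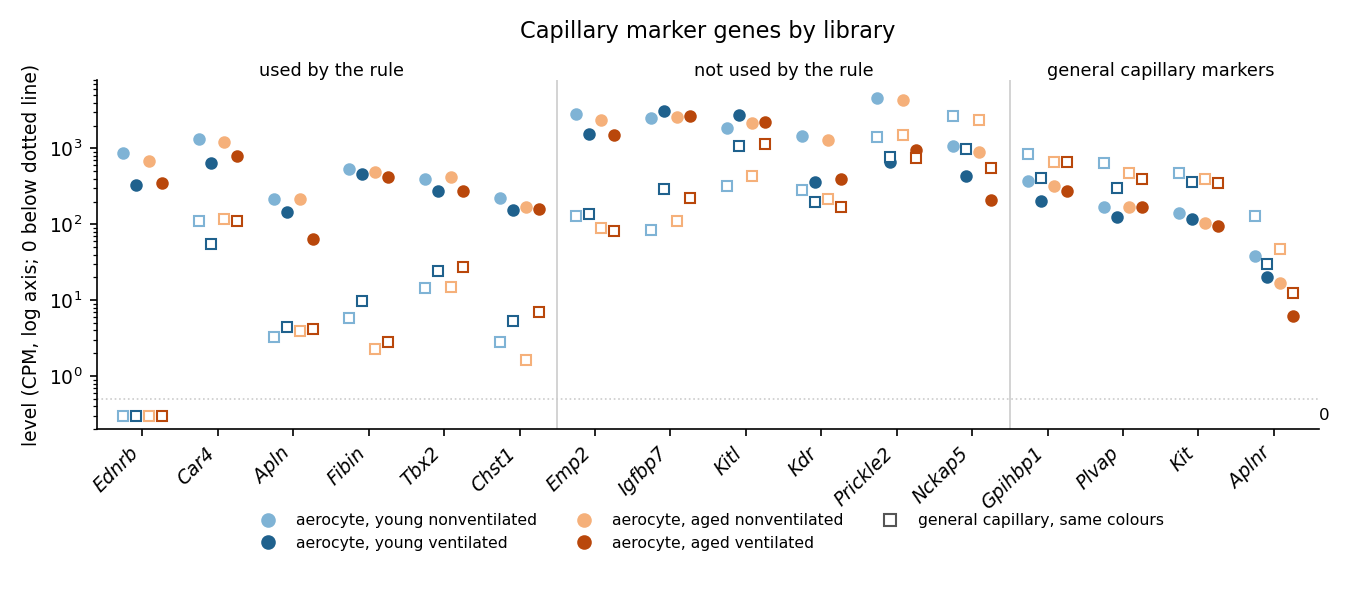
CPM on a logarithmic axis of the genes used by the rule, 6 aerocyte genes outside it and 4 general capillary markers, with filled symbols for aerocytes, open symbols for general capillary cells, 1 symbol per library and values of 0 below the dotted line. Emp2 lies at 1517 to 2858 CPM in aerocytes and at 81.0 to 137 CPM in general capillary cells, whereas Nckap5 is higher in the latter.

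The members varied among themselves. At least 4 of the 6 further markers were detected in 82.6% of the 488 aerocytes (85.7%, 71.8%, 91.2% and 79.3% by library), and all 6 in 40.7%, 8.18%, 29.4% and 10.3%. The 76 members with exactly 2 Ednrb UMIs had 614 CPM of the carbonic anhydrase Car4, 1262 CPM of Emp2 and 486 CPM of Kdr. The 105 barcodes that met every other condition with 1 Ednrb UMI had 477, 933 and 377 CPM, lower than the 76 for each gene. For these genes both groups lay between all members (1023, 2158 and 940 CPM) and general capillary cells (96.5, 111 and 218 CPM). The rule read Car4, so that its level was partly set by the choice of cells. For Prickle2 the values were 1620 and 1048 CPM, beside 1115 CPM in general capillary cells. Of those 76, 28 came from the young ventilated library and 21 from the aged ventilated one, against 18 and 9 from the nonventilated libraries. The Ednrb limit therefore touched the ventilated libraries more. The 31 members with exactly 2 further markers had 496 CPM of Emp2 and 413 CPM of Kdr, above general capillary cells. Their Gpihbp1 (760 CPM) lay above that of general capillary cells (635 CPM), and their Prickle2 (981 CPM) lay below it.

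Markers of other cells were present in some members. At least 2 of 5 general capillary markers, the number that defined general capillary cells, were detected in 177 members. By library these were 32.8%, 34.5%, 33.3% and 49.4% of the members, so that the share was highest in the aged ventilated library. At least 3 of 5 general capillary markers were detected in 152 members (53, 34, 31 and 34 by library), and at least 1 UMI of Sftpc, Sftpb, Ager, Rtkn2, Epcam, Pdgfrb, Cspg4, Prox1, Pf4 or Lyz2, markers of epithelium, mural cells, lymphatics, platelets and myeloid cells, in 246. The 6 lymphatic genes summed to 357, 939, 238 and 2009 CPM, with Lyve1 the most abundant (293, 748, 188 and 1049 CPM, against 533 to 1850 CPM in general capillary cells). Prox1, Mmrn1, Ccl21a and Reln, which define lymphatic endothelium, were at 0 in the aged nonventilated library, and 34.7% of the lymphatic UMIs of the aged ventilated library came from 1 barcode. Erythroid genes summed to 2.19, 436, 2.28 and 14.7 CPM, with 96.6% of the young ventilated value from 1 barcode, and leukocyte genes to 18.4, 56.2, 31.2 and 68.4 CPM with Ptprc and Cd3e at 0. Values without such members, or without the barcode that held most UMIs of a gene, are given wherever they changed a direction.

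The first question of the design was how aerocytes of young mice differed after mechanical ventilation. Interferon-stimulated genes and the metallothioneins Mt1 and Mt2 rose and single members of the VEGF, adrenomedullin, caveolae and flow-response lists fell, with counts given below. A gene was called when its CPM differed at least 2-fold, the 95% counting interval of the ratio left out 1, the mean of both libraries reached 50 CPM and 1 library held at least 20 UMIs. Of 3703 genes compared, 380 (10.3%) were called higher and 422 (11.4%) lower in the young ventilated library, 21.7% in all, and the median log2 ratio over all of them was -0.06. Scaling by the median of ratios in place of total UMIs moved that median to 0.10, and the share of calls that were rises from 47.4% to 60.7% in young and from 40.5% to 51.7% in aged aerocytes. With lower levels let in, falls outnumbered rises: 623 genes were higher and 1514 lower in young aerocytes at a mean of 10 CPM, and 674 and 1957 with no CPM filter. General capillary cells of the same libraries gave 343 and 363 calls among 3677 genes.

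Cxcl10, a chemokine that draws T cells (GRCm38 chromosome 5, 92346638 to 92348889, minus strand), was found in 9 of 189 aerocytes of YN, 85 of 110 of YV, 7 of 102 of AN and 23 of 87 of AV, at 8.74, 1840, 24.3 and 74.0 CPM. In the young libraries it rose 210-fold (95% counting interval 136 to 345), a log2 ratio of 7.65 against 4.70 in general capillary cells. Leukocytes, where the chemokine is also made, had Cxcl10 UMIs in 3.64%, 28.1%, 4.73% and 18.6% of cells, and after each cell was thinned to 2000 UMIs the aerocyte shares were 0%, 60.2%, 3.16% and 10.5%. Rsad2, the antiviral enzyme viperin (chromosome 12, 26442746 to 26456452, minus strand), stood at 5.25, 1008, 11.4 and 16.8 CPM and rose 192-fold in the young libraries (110 to 373), from 9 to 92 cells with a UMI. Both genes were thus high in the young ventilated library alone. Ifit3, an inhibitor of viral RNA translation, rose from 13.6 to 975 CPM, a log2 ratio of 6.12, and Isg15, a ubiquitin-like modifier (chromosome 4, 156199424 to 156200818, minus strand), stood at 56.0, 1699, 89.8 and 269 CPM, a log2 ratio of 4.91 in the young libraries and 1.57 in the aged ones. Isg15 was detected in 29.6%, 97.3%, 38.2% and 67.8% of aerocytes and in 15.1%, 51.5%, 13.1% and 38.7% of leukocytes.

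Of 30 interferon-stimulated genes that passed the level filter, 29 were called higher in young ventilated aerocytes and none lower, with a median log2 ratio of 2.63 beside -0.06 over all genes. Some of the 30, such as Irf7 and Ifit1, passed the filter only through their level in the ventilated library. The count and the median therefore lean on the rise itself. Between the nonventilated libraries 21 genes of the list passed. In general capillary cells 22 of 30 were higher, with a median of 1.82. The summed level of the list was 3854, 19890, 4285 and 6149 CPM by library. Further members that rose were Ifit1 (37.2 to 903 CPM, log2 ratio 4.59) and Irf7, the transcription factor that amplifies interferon production (20.1 to 234 CPM, 3.51). Of 13 genes of antigen presentation on MHC class I, 5 were called higher, beside 10.3% of all genes, with a median of 0.37.

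These genes are known targets of the interferon-stimulated response element, and their promoters are printed because they rose together. RefSeq (GRCm38.p6) gave the 250 bases before the transcription start for 25 of the 30 genes. The letters GAAA, any 2 bases and GAAA occurred on either strand for 13 of these genes (52%), against 2.98% of all 32841 promoters of that length. A gene counted when any of its start sites had a match, whereas the 2.98% counted each promoter singly. The shares are therefore in unlike units. Shown are Cxcl10, from the chemokine list, and 3 genes of the interferon list that were detected in most young ventilated aerocytes and hold a match, 5′ to 3′ on the strand of the gene, with the letters of each match, or of its reverse complement, in capitals. The chemokine promoter lies at chr5:92348890-92349139 with 1 match 213 bases before the start, that of Rsad2 at chr12:26456453-26456702 with 1 match at 120 bases, that of Ifit3 at chr19:34583279-34583528 with 2 matches, the nearer at 122 bases, and that of Isg15 at chr4:156200819-156201068 with 3 overlapping matches, the nearest at 66 bases. A match describes the letters and is not evidence of binding.
Cxcl10: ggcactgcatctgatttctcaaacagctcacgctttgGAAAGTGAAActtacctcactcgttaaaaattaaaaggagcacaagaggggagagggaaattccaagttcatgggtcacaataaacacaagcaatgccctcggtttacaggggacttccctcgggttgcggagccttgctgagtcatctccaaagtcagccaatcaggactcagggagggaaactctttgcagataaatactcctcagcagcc
Rsad2: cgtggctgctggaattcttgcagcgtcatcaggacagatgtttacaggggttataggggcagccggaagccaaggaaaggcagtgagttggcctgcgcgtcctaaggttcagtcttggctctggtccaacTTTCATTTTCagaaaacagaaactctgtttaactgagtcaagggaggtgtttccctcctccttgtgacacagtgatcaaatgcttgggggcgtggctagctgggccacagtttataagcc
Ifit3: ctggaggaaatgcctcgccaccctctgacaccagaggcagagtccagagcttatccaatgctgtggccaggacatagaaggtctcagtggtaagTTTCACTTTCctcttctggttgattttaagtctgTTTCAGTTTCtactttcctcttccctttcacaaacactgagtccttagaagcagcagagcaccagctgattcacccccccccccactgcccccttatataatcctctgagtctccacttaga
Isg15: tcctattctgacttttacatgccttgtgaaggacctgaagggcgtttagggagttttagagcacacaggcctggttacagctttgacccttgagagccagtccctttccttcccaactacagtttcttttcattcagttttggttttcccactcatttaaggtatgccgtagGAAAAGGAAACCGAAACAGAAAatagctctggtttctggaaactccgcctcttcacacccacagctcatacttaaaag

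The metallothioneins, which bind zinc and copper and respond to glucocorticoids and metals, rose in aerocytes at both ages. Mt2 (chromosome 8, 94172664 to 94173568) stood at 2.62, 228, 19.0 and 534 CPM, an 86.9-fold rise in the young libraries (39.5 to 238) from 4 to 66 cells and a log2 ratio of 4.76 in the aged ones from 5 to 57 cells. Mt1 stood at 13.6, 664, 73.0 and 1322 CPM, with log2 ratios of 5.57 and 4.16. The size of both rises depended on the processing: Mt1 ranged from 4.41 to 9.53 in the young and from 3.97 to 6.95 in the aged libraries, and Mt2 from 4.12 to 8.29 and from 4.25 to 5.97. Mt1 was found in 13.8%, 80.9%, 13.7% and 88.5% of aerocytes, and 1 barcode held 74% of its aged nonventilated UMIs. Without the top barcode of each library the aged ratio of Mt1 was 5.94. Both genes were therefore higher in each ventilated library than in either nonventilated one, and Mt1 was likewise higher in leukocytes of the ventilated libraries (642, 2873, 536 and 1494 CPM). Fkbp5, a chaperone induced by glucocorticoids, stood at 14.0 CPM in YN and 88.4 CPM in YV, and at 13.7 CPM in AN and 128 CPM in AV, a rise at both ages. Of the 10 metallothionein and glucocorticoid genes compared, 4 were called higher and 1 lower in young aerocytes (median log2 ratio 0.24) and 3 higher and none lower in aged ones (median 0.22). Over all genes, 10.3% were called higher and 11.4% lower in young aerocytes, and 4.84% and 7.11% in aged ones. Mt2 and Fkbp5 at both ages, and Mt1 in the young libraries, passed the level filter only through the ventilated library. The counts of rises therefore lean on the rises themselves. Between the nonventilated libraries 7 genes of the list passed. The lower gene of the list was Tsc22d3, also known as a glucocorticoid target, at -1.27 in the young libraries and -0.90 in the aged ones. Noct, a clock-linked NADP(H) phosphatase, rose from 7.43 to 558 and from 33.5 to 296 CPM.

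Single genes of the cytoskeleton and of mechanical signaling also rose. Akap12, a scaffold for protein kinase A (chromosome 10, 4266380 to 4359470), stood at 552, 4517, 648 and 4102 CPM, a log2 ratio of 3.03 in the young libraries and 2.66 in the aged ones. The GTPase Rhoc rose from 303 to 1392 CPM (2.20) and the tropomyosin Tpm1 from 140 to 541 CPM (1.95) in the young libraries, and both rose in the aged ones as well (1.64 and 1.20, the latter at 0.92 without members with at least 3 general capillary markers). Of 6 targets of the YAP coactivators 4 were higher in young aerocytes, including Ccn2 (21.4 to 146 CPM), beside 10.3% of all genes. Ccn2 passed the level filter only through the ventilated library, so that the count leans on the rise itself. Between the nonventilated libraries 4 genes of the list passed. In aged aerocytes 1 of 5 was higher, beside 4.84% of all genes. The young rises of Ccn1 (log2 ratio 1.03) and Crim1 (1.55) turned to -0.18 and -0.04 without members that held at least 3 general capillary markers.

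**Figure D3:**
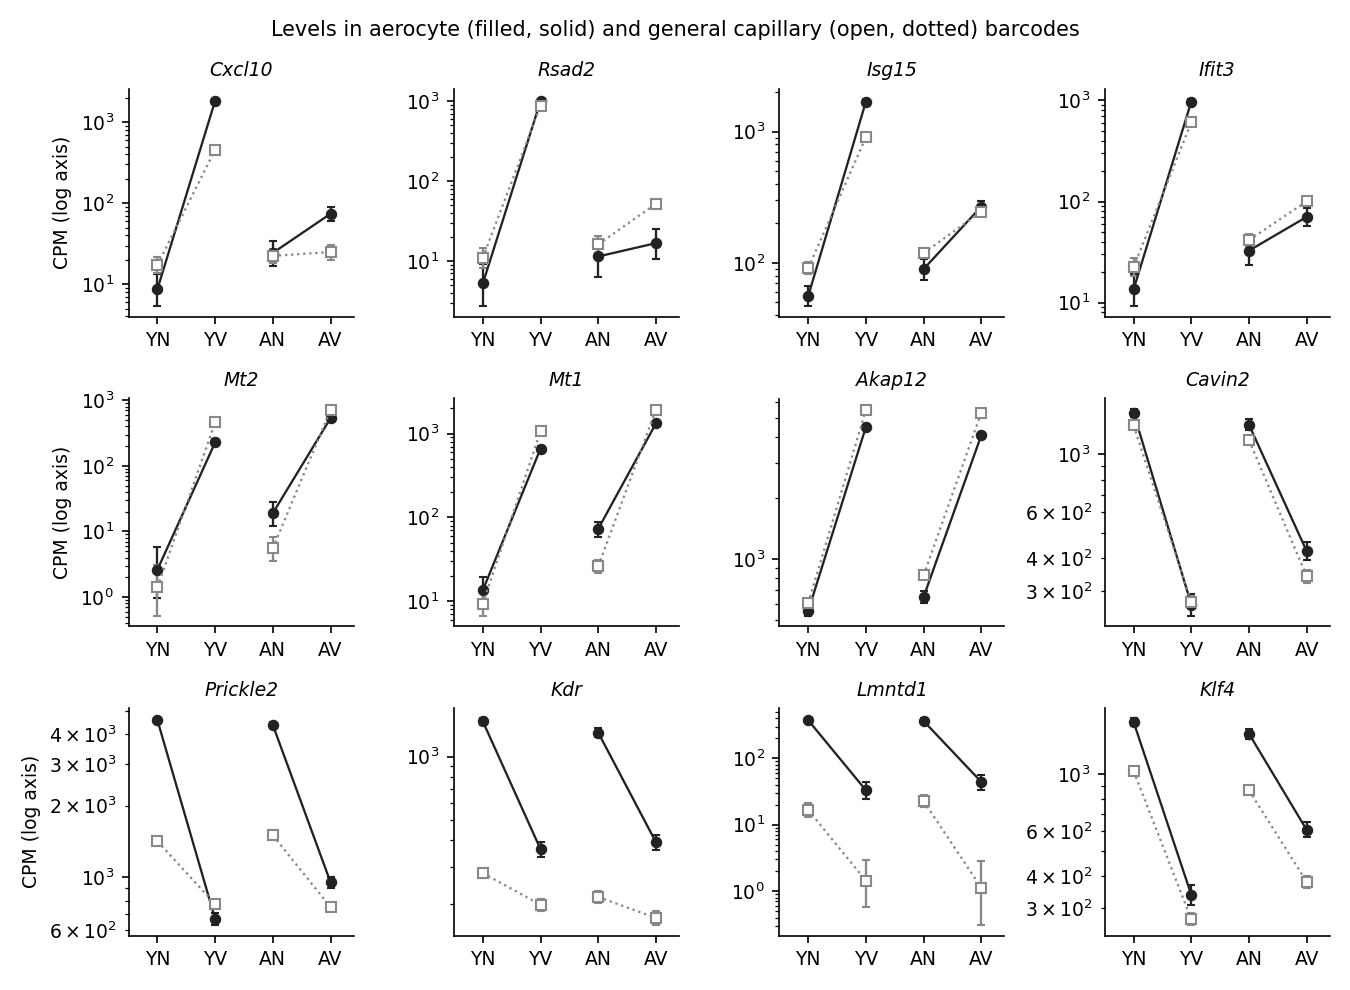
CPM on a logarithmic axis of 12 named genes in the young (YN, YV) and aged (AN, AV) libraries, N for nonventilated and V for ventilated, with filled symbols and solid lines for aerocytes, open symbols and dotted lines for general capillary cells, and 95% counting intervals. Cxcl10 and Rsad2 peak in the young ventilated library (1840 and 1008 CPM), Mt2 and Akap12 are high in both ventilated libraries, and Prickle2, Kdr and Lmntd1 are low in both.

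Of the aerocyte genes outside the rule, Prickle2 and Kdr were lower after ventilation at both ages. Prickle2, a planar polarity protein, stood at 4564, 670, 4361 and 955 CPM, a log2 ratio of -2.77 in the young libraries and -2.19 in the aged ones, and its median over single cells was 4591, 458, 4540.3 and 704 CPM, so that the typical cell followed the sum. General capillary cells had Prickle2 at 1419, 774, 1502 and 751 CPM, so that aerocytes were the higher of the cell types in every library but YV. Kdr (chromosome 5, 75932827 to 75978458, minus strand) fell by 2.01 and 1.72 on the log2 scale. Of the 6 aerocyte genes outside the rule, 3 were called lower at each age (Prickle2, Kdr and Nckap5), with medians of -1.10 and -1.19 beside -0.20 and -0.24 in general capillary cells. Over all genes, 11.4% were called lower in young and 7.11% in aged aerocytes. Emp2 and Igfbp7, whose levels are given above, and the stem cell factor Kitl (1855, 2796, 2185 and 2260 CPM) did not reach 2-fold at either age. The Ednrb-free rule gave Prickle2 at 4189, 696, 4103 and 982 CPM and Kdr at 1351, 326, 1201 and 399 CPM, nearly the same values.

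The genes that the rule itself read are given without a reading. Ednrb stood at 876, 327, 680 and 353 CPM, Car4 at 1316, 637, 1227 and 787 CPM, Apln (chromosome X, 48025146 to 48034853, minus strand) at 214, 145, 218 and 64.3 CPM, Fibin at 541, 460, 492 and 418 CPM, the transcription factor Tbx2 at 396, 276, 423 and 272 CPM, and the sulfotransferase Chst1 at 226, 157, 171 and 161 CPM. Under the rule without Ednrb, Ednrb stood at 770, 231, 580 and 293 CPM.

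Over all genes, 11.4% were called lower in young and 7.11% in aged aerocytes. Across the vascular growth factor genes, 5 of 9 were called lower and none higher in young aerocytes (median log2 ratio -1.06), and 2 of 6 without members with markers of other cells. Besides Kdr these included the VEGF co-receptor Nrp1 (1586 to 431 CPM, -1.88), the angiopoietin receptor Tek (-1.67) and its partner Tie1 (-1.06), and the phosphatase Ptprb (-1.54). Tek and Ptprb are also on the general capillary list, which summed to 2212 CPM in YN and 1044 CPM in YV aerocytes. Of 7 genes of that list 3 were called lower and 1 higher there, with a median of -0.87. The call of Tie1 ended under 6 alternatives, with the value nearest to 0 at -0.69. In aged aerocytes 3 of 11 were lower and 1 higher, with Nrp1 at -1.21 and Tek at -1.20 (-0.78 and -0.93 with cells thinned to 2000 UMIs). Of 7 apelin, endothelin and adrenomedullin genes, 4 were lower in young and 2 in aged aerocytes, beside 11.4% and 7.11% of all genes. The 4 and the 2 include Ednrb in the young and Apln in the aged libraries, which the rule read. Neither aged call held under every alternative: Calcrl, which fell by 1.00, stood at -0.85 without members with at least 3 general capillary markers, and Apln at -0.65 without members with markers of other cells. Calcrl, the adrenomedullin receptor, fell from 2448 to 1017 CPM in the young libraries (-1.27), and Ramp2, the protein that carries it to the surface, fell from 1829 to 520 CPM in the young libraries (-1.81). The natriuretic peptide receptor Npr1 fell by 1.54 in the young libraries.

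More genes of caveolae and of the thin wall were called lower in young than in aged aerocytes, as was so over all genes (11.4% and 7.11%). The difference was not tested. Of 10 genes, 6, including Car4, which the rule read, were lower and 1 higher in young aerocytes (median -1.04), against 2 lower and 1 higher in aged ones (-0.58). Under the median-of-ratios scaling 3 rather than 6 were lower in young aerocytes, with a median of -0.88. The caveolar coat protein Cavin2 stood at 1438, 267, 1294 and 426 CPM, log2 ratios of -2.43 and -1.60, and Cav2 fell by 1.74 and 1.26. Caveolin 1, Cav1, fell from 965 to 409 CPM in the young libraries, as did the water channel Aqp1 from 1043 to 489 CPM (-1.09, and -0.93 under that scaling). The exception was Cavin3, which rose at both ages (79.1 to 397 CPM in young aerocytes, log2 ratio 2.32, and 1.43 in aged ones). Of 7 flow-responsive genes 3 were lower in young and 2 in aged aerocytes, beside 11.4% and 7.11% of all genes. The transcription factor Klf2 stood at 1698, 441, 1402 and 585 CPM and Klf4 at 1589, 339, 1431 and 606 CPM. The anticoagulant receptor Thbd fell from 851 to 247 CPM in the young libraries.

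Of 16 cell junction genes 2 were called lower in young aerocytes (Jup, -1.54, and Nectin3, -1.41), where 11.4% of all genes were, and 1 in aged ones (Nectin3, -1.11, and -0.80 with cells thinned to 2000 UMIs), where 7.11% were, with medians of -0.03 and 0.05 (0.13 and 0.14 under the median-of-ratios scaling). The tight junction protein Cldn5 stood at 2441, 2026, 2285 and 2689 CPM, and Cdh5, which the rule read, had log2 ratios of 0.07 and 0.18. None of 77 ribosomal protein genes was called at either age (medians -0.17 and 0.10).

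The 12 largest falls in young aerocytes were led by the kinesin Kif26b (108 to 8.39 CPM, -3.58), followed by Ypel3, Lmntd1 (373 to 32.9 CPM, -3.47), the incretin receptor Glp1r (157 to 13.6 CPM, -3.47), Tmeff2 (470 to 43.9 CPM, -3.40) and Sgip1 (446 to 45.2 CPM, -3.28). Glp1r, which is also on the general capillary list, stood at -0.18 without members with markers of other cells. Lmntd1 and Tmeff2 also belonged to the genes that were higher in aerocytes than in general capillary cells in every library. Ctdspl, a phosphatase, fell from 237 to 27.1 CPM (-3.10) in aerocytes, with a log2 ratio of 0.56 in general capillary cells. Among the largest rises, Hbb-bs and Hba-a1 (8.06 and 6.64) came almost wholly from 1 barcode and stood at 4.56 and 1.56 without the barcode that held most of their UMIs in each library.

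The second question was the same contrast in aged mice. Of 3655 genes, 177 (4.84%) were called higher and 260 (7.11%) lower in aged ventilated aerocytes, 12% in all, and the all-gene median was -0.04. At a mean of 10 CPM the counts were 393 and 928, and with no CPM filter 426 and 956. General capillary cells gave 164 and 219 calls among 3650 genes. With every library thinned to the same 1314200 aerocyte UMIs, the counts of calls were 808 in the young and 437 in the aged libraries, in the same order as at full depth. Of 22 interferon-stimulated genes 7 were higher and none lower (median 0.76), among them Isg15, Ifit1 (73.0 to 192 CPM, 1.39), the GTPases Gbp2 (1.49) and Igtp (1.35), and the membrane protein Ifitm3 (725 to 1550 CPM, 1.09). The count depended on the cells kept, from 4 of 22 with 1 Ednrb UMI to 13 of 22 with the cell filter of the study and 12 of 19 without members with markers of other cells. Gbp2 stood at 0.56 with cells thinned to 2000 UMIs and Ifitm3 at 0.97 with 1 Ednrb UMI.

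Several of the largest rises in aged aerocytes rested on few barcodes. Of the 12 largest, 8 (Reln, Mmrn1, Fgl2, Scgb1a1, Scgb3a2, Igfbp5, Maf and Sema3a) had more than 50% of their aged ventilated UMIs in 1 barcode. Reln had 0 and 240 UMIs, the latter in 3 cells, so that it was at least 73.4-fold higher when 3 counts were set as the floor, and Mmrn1 had 0 and 228 UMIs in 2 cells, at least 69.8-fold. Without the 4 aged ventilated members that held a UMI of Prox1, Mmrn1 or Reln, Maf stood at 0.29 and Sema3a at -3.29. Scgb1a1, the secretory protein of club cells, went from 110 to 7809 CPM (6.15), and the log2 ratio was -0.34 without the top barcode of each library. The other 4 were spread over more cells: Mt2 and Mt1, the adenylate kinase Ak8 (4.49, 21 cells) and the siderophore-binding protein Lcn2 (4.17, 20 cells).

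Among the 12 largest falls in aged aerocytes, Nrg1 (-4.96) had 99% of its aged nonventilated UMIs in 1 barcode and stood at 0.88 without it. Lmntd1 fell from 363 to 44.0 CPM (-3.02), the anthrax toxin receptor Antxr1 from 110 to 15.4 CPM (-2.79), Pde8b from 394 to 67.7 CPM (-2.53) and the aryl hydrocarbon receptor Ahr from 141 to 25.1 CPM (-2.45), and Glp1r fell by 2.38 on the log2 scale (-0.90 without members with at least 3 general capillary markers). Rnf144a, a ubiquitin ligase, fell from 176 to 27.9 CPM (-2.62), with -0.85 without those members and -0.25 without members with markers of other cells.

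Both contrasts were set side by side for 3468 genes compared at both ages. Of these, 75.8% had the same sign, and no gene was called in opposite directions. The 118 genes called higher at both ages were 31.1% of the young and 66.7% of the aged calls, and the 186 called lower were 44.1% and 71.5%. The 327 genes that were higher in young aerocytes and compared at both ages had a median log2 ratio of 1.48 there and 0.82 in aged aerocytes. The 395 that were lower had -1.37 and -0.95. Starting from the aged calls instead, the 152 genes called higher in aged aerocytes also had the larger median in the young libraries (1.66 against 1.29), as did the 241 called lower (-1.56 against -1.29), so that the young values were larger whichever age chose the genes.

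**Figure D4:**
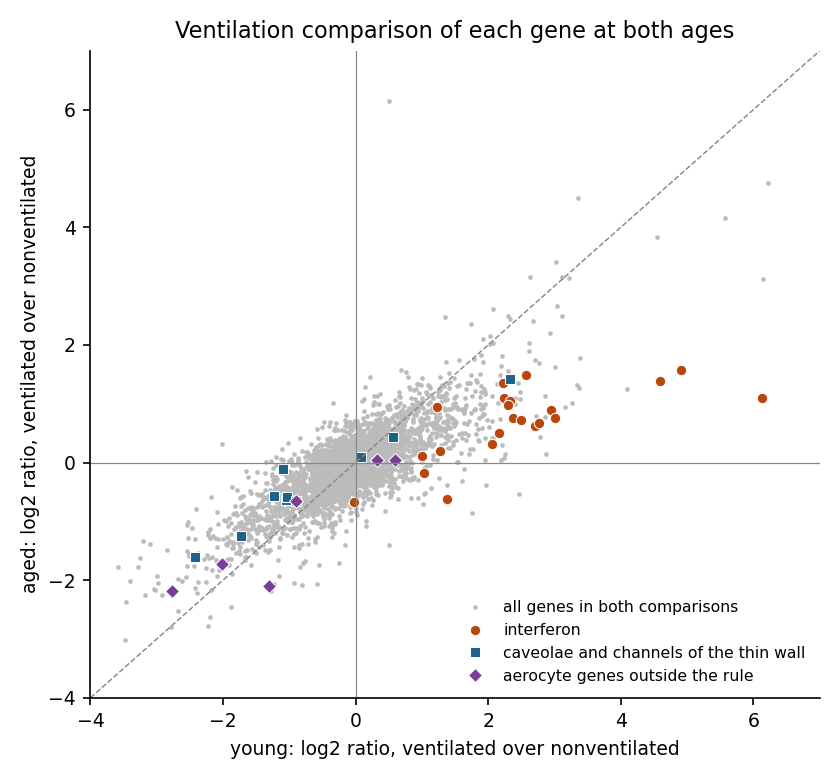
Log2 ratio of ventilated over nonventilated aerocytes in young (horizontal axis) and aged mice (vertical axis) for the 3468 genes compared at both ages, with the interferon, caveolae and aerocyte-outside-the-rule lists in color. Isg15 lies at 4.91 and 1.57 and Ifit1 at 4.59 and 1.39, and of the 6 aerocyte genes 4 lie below 0 at both ages and 2, Igfbp7 and Kitl, above it. Cxcl10 and Rsad2 were not compared in aged aerocytes, where their mean was below 50 CPM.

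The third question was how aerocytes of aged and young nonventilated lungs differed. Of 3810 genes 14 (0.367%) were higher and 4 (0.105%) lower with age, 0.472% in all, with a median of -0.02, and general capillary cells gave 15 and 2 calls among 3770 genes. The split changed with the cells kept: 30 were higher and 43 lower with cells thinned to 2000 UMIs, 42 and 43 without members with markers of other cells, and 16 and 15 without members with at least 3 general capillary markers. With no CPM filter it was 152 and 149. Gdf15, a stress-induced member of the TGF-beta family that acts on appetite (chromosome 8, 70629393 to 70632456), stood at 28.0, 42.0, 129 and 228 CPM in YN, YV, AN and AV. It was 4.60-fold higher with age in the nonventilated libraries (3.43 to 6.23), with UMIs in 10 of 189 young and 29 of 102 aged aerocytes, and both aged libraries lay above both young ones. Under the alternatives its log2 ratio with age in these nonventilated libraries ranged from 1.33 to 2.91. General capillary cells held 0 and 5 Gdf15 UMIs in the nonventilated libraries. Leukocytes had 10.5, 81.6, 24.3 and 54.9 CPM, and Gdf15 UMIs in 3.52%, 17.1%, 8.59% and 11% of cells, against 5.29%, 18.2%, 28.4% and 32.2% of aerocytes (2.86%, 7.77%, 15.8% and 22.1% after thinning).

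The largest ratio, that of Nrg1 (6.64), came from the single aged barcode noted above. Other genes that were higher in aged nonventilated aerocytes were the phosphodiesterase Pde1a (31.0 to 112 CPM, 1.84) and the thioredoxin reductase Txnrd1 (26.7 to 76.1 CPM, 1.50, and 0.88 with cells thinned to 2000 UMIs). The heat shock genes Hspa1b (80.0 to 24.3 CPM, -1.68) and Hspa1a (110 to 49.5 CPM, -1.13) were lower, 2 of the 4 falls, although Hspa1a did not reach 2-fold under 6 alternatives, with the value nearest to 0 at -0.74. The other two, S100a6 (-1.72) and the type 1 epithelial receptor Ager (-1.69), each leaned on 1 barcode: without the top barcode of each library S100a6 stood at -0.80, and 94% of Ager UMIs in the young library came from 1 cell. None of 21 interferon-stimulated genes was called (median 0.15), nor any of 17 junction genes (median -0.06).

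The fourth comparison set aged against young ventilated aerocytes. Of 3473 genes 48 (1.38%) were higher and 140 (4.03%) lower in the aged library, 5.41% in all, with a median of 0.02, and general capillary cells gave 26 and 87 calls among 3481 genes. Falls did not outnumber rises once lower levels were let in, with 301 higher and 278 lower at a mean of 10 CPM and 341 and 306 with no CPM filter. Age cannot be told apart here from the tidal volume per body weight. Of 30 interferon-stimulated genes 27 were called lower and none higher, with a median of -1.75, beside 25 of 31 and -1.35 in general capillary cells. Some of the 30, such as Ifit2, passed the level filter only through the young ventilated library, on which the count and the median therefore lean. Between the aged libraries 22 genes of the list passed. Rsad2 fell by 5.85, Cxcl10 by 4.62, Ifit2 (371 to 17.5 CPM) by 4.35 and Ifit3 (975 to 70.5 CPM) by 3.78 on the log2 scale. The haemoglobin genes Hba-a1 (-5.22) and Hbb-bs (-5.06) were also among the largest falls, and stood at -0.30 and -1.30 without the top barcode of each library. Of 13 MHC class I genes 6 were lower (median -0.84), including the immunoproteasome subunit Psmb8 (-1.41) and the peptide transporter Tap1 (-1.32). The calls of Psmb9, Psmb10 and Tap2 ended under alternatives, with values nearest to 0 at -0.38, -0.86 and -0.85. In nonventilated aerocytes none of the 13 was called with age, and all had ratios below 0 (median -0.31). Mt2 went the other way, 2.34-fold higher in aged ventilated aerocytes (log2 ratio 1.23), but it did not reach 2-fold with the cell filter of the study (0.83). The largest rises here (Scgb1a1, 6.00, Scgb3a2, 4.78, Fgl2, 3.51, and Reln, 3.50) rested on few barcodes, as in the contrast above, and without each gene's top barcode the rises numbered 25.

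Interferon genes were also counted cell by cell, as at least 3 of Isg15, Rsad2, Cxcl10, Ifit1 and Ifit3 with a UMI. This held for 7.94%, 94.5%, 8.82% and 37.9% of aerocytes, or 1.14%, 75.7%, 1.05% and 9.30% after thinning to 2000 UMIs per cell. The same shares were 8.96%, 80.4%, 17.1% and 29.1% of general capillary cells and 1.38%, 22.8%, 1.45% and 10.3% of leukocytes, or 1.48%, 53.4%, 2.13% and 6.29% and 0%, 12.2%, 0.394% and 5.26% after thinning. Free RNA was not subtracted from these shares. With a 5% background subtracted from the sums, the medians of the interferon list were 2.66 in young and 0.78 in aged aerocytes. The median of the 5 genes' summed CPM over cells was 6175 in the young ventilated and 361 in the aged ventilated library.

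Finally, the response of aerocytes was compared with that of general capillary cells in the same libraries. The vascular receptor Kdr fell further in aerocytes at both ages (log2 ratios -2.01 and -1.72, against -0.50 and -0.33), and Fkbp5 rose further (2.63 and 3.15, against 1.31 and 1.96), as did the interferon-inducible GTPases Igtp (2.22 and 1.35, against 0.90 and 0.31) and Gbp6 (2.72 and 0.79, against 1.57 and -0.66). The mineralocorticoid receptor Nr3c2 fell further in general capillary cells (-2.41 and -2.56, against -1.17 and -0.45), where Mt2 (8.13 and 6.95, against 6.22 and 4.76), the surface protein Ly6c1 (2.02 and 2.19, against 0.68 and 0.86) and the bradykinin receptor Bdkrb2 (3.21 and 2.69, against 1.94 and 1.25) rose further. These differences have no replicate check and were not tested.

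**Figure D5:**
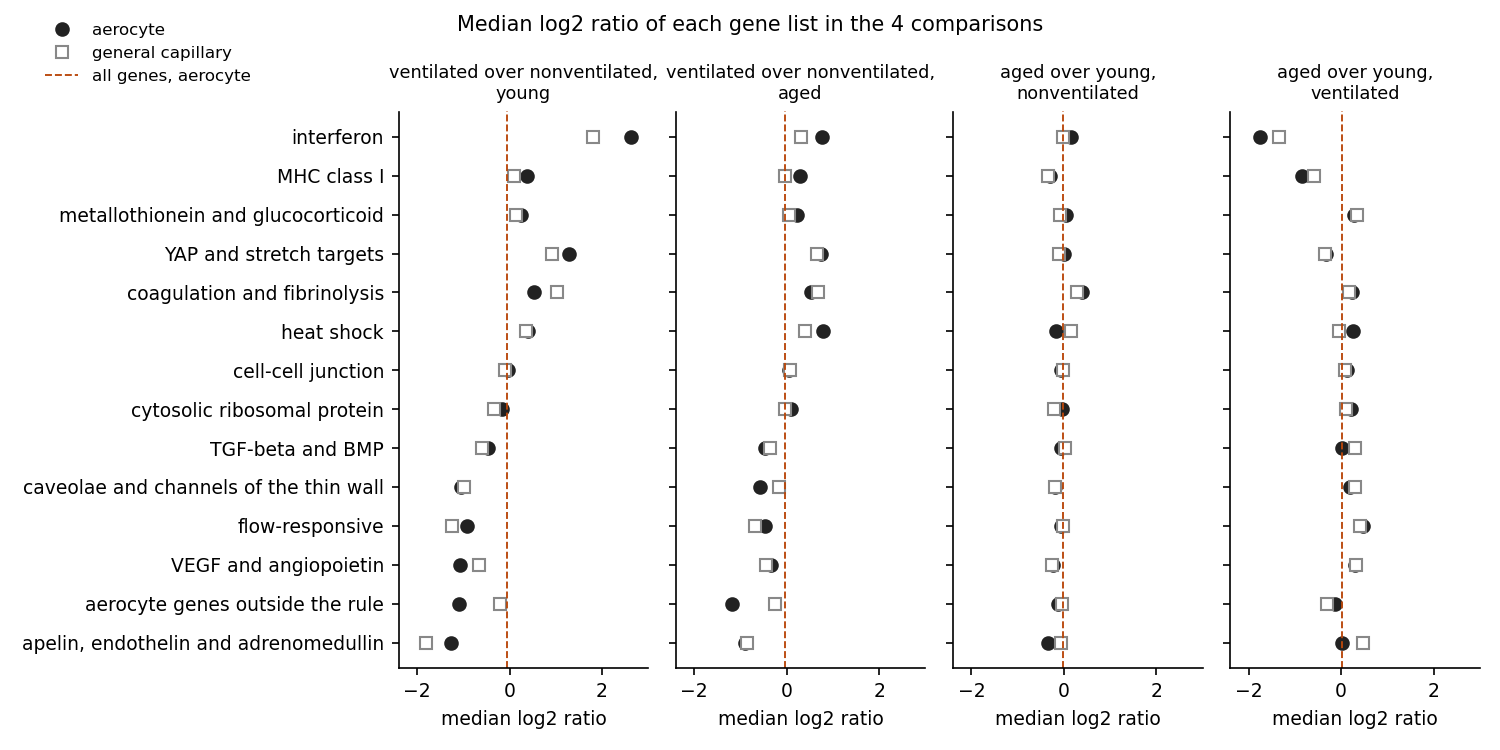
Median log2 ratio of 14 gene lists in the 4 comparisons for aerocytes (filled) and general capillary cells (open), with a dashed line at the median of all genes compared. In young aerocytes the interferon list stands at 2.63 and the VEGF and angiopoietin list at -1.06, and with age in nonventilated lungs nearly all lists lie close to the dashed line.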

How the data were processed

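Cells of 4 libraries, each pooled from 3 mice, were sequenced on the 10x platform. The authors deposited unnormalized UMI counts per gene and barcode, made with Cell Ranger 7.0.0 and aligned to mm10 according to the submitters' processing notes. The files hold 32285 genes, of which 32158 (99.6%) were matched by gene ID to GENCODE M21 (GRCm38) for positions. Promoter sequence came from RefSeq (GRCm38.p6).

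Counts were summed over the aerocytes of each library, scaled to CPM (counts per 1000000 UMIs) and compared as a log2 ratio with 1 UMI added to each sum, which understates the change of genes at few UMIs. Ratio intervals are exact conditional binomial intervals and shares have Clopper-Pearson intervals, both at 95% and for counting error only. Genes averaging at least 50 CPM in the pair of libraries, with at least 20 UMIs in 1 of them, entered a comparison, and were called at 2-fold with an interval that left out 1. General capillary cells had Cdh5 and at least 2 of 5 markers (Gpihbp1, Aplnr, Kit, Plvap and Lpl) without meeting the aerocyte rule. They also held no UMI of Ednrb, Ptprc or Col1a2, so that barcodes with any Ednrb UMI were outside this class. Nor did they hold a UMI of the arterial, venous and lymphatic genes Gja5, Bmx, Slc6a2, Prox1 and Mmrn1. The aerocyte rule had no such condition, so that the classes are not alike for such markers. Leukocytes had at least 2 UMIs of Ptprc and no UMI of Cdh5. No doublet caller was run. Barcodes above 7500 genes were left out, and members with markers of other cells were left out as an alternative. Shares of cells with a UMI were repeated after thinning each cell to 2000 UMIs.

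Named genes were the 12 largest rises and falls of each ventilation comparison, the 6 largest of each age comparison, members of 36 gene lists, the 12 genes most above and most below general capillary cells, and the 6 whose response differed most between the cell types in each direction. Some genes and lists that this rule names are not reported here. The members and lists were chosen with earlier results of these data known. Alternatives covered the cell filter, the rule, depth, scaling, the added count and the filter on low values. Leaving out the top barcode, members with general capillary markers and members with lymphatic markers was chosen after seeing the data. Python 3.11.15, numpy 2.4.6, scipy 1.17.1, pandas 2.3.3 and matplotlib 3.10.9 were used.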

Additional observations from a re-analysis of the deposited data

Results flagged for a closer look

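The log2 ratio of ventilated over nonventilated aerocytes had opposite signs in young and aged mice for the 10 genes below. Each was called at 1 of the ages, with counting intervals that left out 1 at both. Each also kept both directions without its top barcode, and a 2-fold ratio at the age of the call. Names starting with Gm were left out. Of the 3468 genes compared at both ages 75.8% had the same sign, so that opposite signs alone were not rare. Each direction rests on 1 library per group, and the difference between ages was not tested.

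Genes of the interferon-inducible p200 family, known as nucleic acid sensors, came first. Ifi213 stood at 58.6, 324, 67.0 and 46.1 CPM in the libraries YN, YV, AN and AV, log2 ratios of 2.46 and -0.53 and a difference of 2.99. Ifi203 (185, 627, 235 and 129 CPM) differed by 2.62 and Mndal (210, 825, 230 and 176 CPM) by 2.36. For all of these the young ventilated library was the highest and the aged ventilated one the lowest. The interferon-inducible GTPase Iigp1 (307, 797, 365 and 237 CPM) differed by 2.00 and the secreted glycoprotein Lgals3bp (70.0, 181, 91.3 and 56.6 CPM) by 2.06.

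Vwf, the von Willebrand factor of endothelial storage granules, went the other way: it stood at 109, 26.5, 139 and 174 CPM, log2 ratios of -2.01 and 0.32 and a difference of -2.33. The young ratio of Vwf was -0.82 with cells thinned to 2000 UMIs and -3.91 without members with at least 3 general capillary markers. The remaining genes were the glycosyltransferase Gtdc1 (difference 1.89), the choline kinase Chka (1.76), the transcription factor Elf1 (1.58) and the Notch coactivator Maml2 (1.52).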

How the results depend on the processing

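No paired analysis was possible because each group is 1 library of pooled mice. With 1 library per group the differences between mice are not known, and aerocyte sums of 1314200 to 2287212 UMIs limit the genes that can be compared. Of 4939 log2 ratios of named genes under the alternatives, 3992 stayed within their limits. Another 894 left them, toward or away from 0, with the same sign, and 53 changed sign. The limits were the counting interval for comparisons between libraries. For aerocytes over general capillary cells they were the standard deviation over the libraries around the main value. Of 576 list medians 568 stayed within an interval set by the ratios of the list members, the exceptions standing below. That interval is wide for short lists. Within it the VEGF and angiopoietin median ranged from -0.80 to -0.015 in aged ventilation. The junction median changed sign within it, from -0.28 to 0.13 in young and from -0.23 to 0.14 in aged ventilation.

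The share of aerocytes in YN, YV, AN and AV was 2.62%, 1.35%, 1.36% and 0.901% without members with markers of other cells (the 10 genes named above, or at least 3 general capillary markers), and 4.62%, 2.28%, 2.35% and 2.08% without members with at least 3 general capillary markers. It was 4.78% in the young ventilated library with 1 Ednrb UMI, and 5.29% there and 4.43% in the aged ventilated library without Ednrb. The numbers of genes called in the young and aged ventilation comparisons, age in nonventilated and age in ventilated lungs were 2137, 1321, 242 and 579 at a mean of 10 CPM, 2631, 1382, 301 and 647 with no CPM filter, 1511, 1066, 169 and 480 at 1.5-fold, and 181, 69, 2 and 47 at 4-fold. Without members with markers of other cells the last 3 were 675, 85 and 381. Age in nonventilated lungs gave 30 genes at 5% mitochondrial UMIs, 73 with cells thinned to 2000 UMIs and 31 without members with at least 3 general capillary markers, under which age in ventilated lungs gave 339. The interferon median in aged ventilated lungs was 1.17 with the cell filter of the study and 1.37 without members with markers of other cells, and with age in ventilated lungs it was -1.61 without Ednrb and -2.32 without members with at least 3 general capillary markers. The junction median with age was -0.026 (cell filter of the study) and -0.0078 (markers of other cells) in nonventilated lungs, and 0.23 (markers of other cells) and 0.20 (thinned cells) in ventilated ones.

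Log2 ratios that changed sign are listed here, and the cause was not tested. In young ventilation Ager gave 0.96 without Ednrb and 2.92 with 3 further markers, Ccl21a gave -0.81 without Ednrb and -1.74 without lymphatic markers, Ccn1 gave -0.57 without markers of other cells and -0.18 without general capillary markers, Crim1 gave -0.044 without the latter, and Lpl gave -0.24 thinned. In aged ventilation Nrg1 gave 1.06 with the cell filter of the study and 0.88 without its top barcode, and Vcam1 gave -0.31 without general capillary markers. Scgb1a1 gave -0.068 with the cell filter of the study, -0.67 at 5% mitochondrial UMIs, -0.54 without Ednrb, -0.51 with 3 further markers and -0.34 without its top barcode, and Sema3a gave -3.26 with the cell filter of the study, -2.46 without Ednrb, -3.34 with 3 further markers and -3.29 without lymphatic markers. With age in nonventilated lungs Ager gave 2.59 (cell filter of the study), 2.27 (3 further markers) and 0.019 (thinned). With age in ventilated lungs the cell filter of the study gave -7.34 for Ccl21a, -3.71 for Cp, -1.74 for Fgl2, -0.46 for Flt4, -5.07 for Mmrn1, -3.42 for Reln, -0.83 for Scgb1a1, -0.90 for Scgb3a2, -3.60 for Sema3a and -1.22 for Vcam1. In that comparison 5% mitochondrial UMIs gave -0.78 for Scgb1a1 and -1.52 for Scgb3a2, the rule without Ednrb gave -0.88, -1.16 and, for Sema3a, -2.66, and 3 further markers gave -0.62, -1.38, -3.38 and, for Cp, -0.91. Leaving out markers of other cells gave -0.10 for Flt4, -0.97 for Scgb1a1, -1.68 for Sema3a and -3.27 for Vcam1, general capillary markers -0.82 for Scgb1a1 and -2.46 for Vcam1, lymphatic markers -0.19 for Cp, -0.077 for Flt4 and -3.40 for Sema3a, and the top barcode -0.58 for Scgb1a1 and -1.47 for Scgb3a2.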

Other observations

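Of 14 basement membrane genes 4 were called higher and 3 lower in young ventilated aerocytes (median log2 ratio 0.47), and of 12 TGF-beta genes 2 were called lower and none higher (median -0.47). Over all genes compared, 10.3% were called higher and 11.4% lower. Of 7 chemokines and cytokines 4 were higher and 1 lower, among them the macrophage growth factor Csf1 (2.34), Cxcl16 (1.90) and Cx3cl1 (1.47), with Cxcl12 lower (-2.18, and -0.99 without members with markers of other cells). Cxcl10, also among the higher genes, passed the level filter only through the ventilated library, so that the count leans on the rise itself. Between the nonventilated libraries 5 genes of the list passed. None of the 5 chemokines and cytokines compared in aged aerocytes was called.

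Type 1 epithelial genes summed to 1076, 651, 636 and 666 CPM in aerocytes of YN, YV, AN and AV, and to 192 to 334 CPM in general capillary cells. Most of each aerocyte sum came from Hopx alone, at 824, 542, 530 and 639 CPM. The barcode with the most UMIs of the type 1 list held 29.3%, 17.9%, 20.8% and 2.73% of them. The calcium-binding protein S100a10 was higher in ventilated aerocytes at both ages (144 to 937 CPM in young mice, log2 ratio 2.70, and 1.74 in aged mice).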
